A study of Homo sapiens with 414 samples.

Results

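Described here are 10 genes of the NOTCH pathway, taken by name from the 19084 gene symbols of a human RNA-seq series: the ligand genes DLL1, DLL3 and JAG1, the receptor gene NOTCH1, the feedback gene NRARP, and the transcription factor genes HES1, HES4, HES5, HEY1 and HEYL. They were chosen as named pathway members and not by a filter on a measured value, but earlier results of these data were known when they were chosen. All 10 had values, and all 10 passed the filter for testing, a value of 1 TPM or more in 5 or more libraries, which left 16318 genes.

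The cells were H1-NPC cultures, neural progenitors derived from H1, an established line of human embryonic stem cells, grown flat in wells of a culture plate to screen chemicals for neurotoxicity. All groups shared that 1 line, prior expansion with FGF2, and seeding into a medium with no FGF2 named, and each compound was added on the day of seeding at 1 dose. RNA was sequenced once per compound on up to 11 days (1, 2, 3, 4, 6, 8, 10, 15, 21, 27 and 39), for 29 compounds labelled toxic (19 to 29 libraries a day) and 16 labelled non-toxic (7 to 16 libraries a day). The non-toxic compounds were acetaminophen, amoxicillin, aspirin, DMSO, Ficoll 400, fructose, glucosamine, glycerol, glyphosate, ibuprofen, naproxen sodium, PEG 3350, PVP, saccharin, sorbitol and sucrose. The toxic compounds described in full were arsenic at 5 µM, cadmium at 50 µM, cytosine beta-D-arabinofuranoside (AraC) at 5 µM, busulfan at 50 µg/ml, okadaic acid at 3 nM, vincristine at 1 nM, 5-fluorouracil at 10 µM, hydroxyurea at 250 µM, (trans) retinoic acid at 1.7 µM and lead acetate at 30 µM. The other toxic compounds were isotretinoin at 0.5 µg/ml, Bis-I at 4 µM, amiodarone at 1 µg/ml, U0126 at 10 µM, PD166866 at 2.5 µM, diazinon at 10 µM, K252a at 30 nM, dexamethasone at 100 µM, thalidomide at 100 ng/ml, monosodium glutamate at 150 µM, dioxin at 3 nM, permethrin at 2.5 µM, benzene at 50 µg/ml, carbamazepine at 10 µg/ml, propylthiouracil at 25 µg/ml, 2-imidazolidinethione at 0.4 mM, bioallethrin at 10 nM, L-phenylalanine at 1 mM and Maneb at 60 µM. Arsenic, cadmium, AraC, busulfan, okadaic acid and vincristine were sampled on days 1 to 6, 5-fluorouracil on days 1 to 6, 27 and 39, and the other 3 on all 11 days. Days stand in for replicates of a compound, and nothing says how independent its wells were, so p-values measure only the spread between these libraries. Expression is given as TPM, a length-corrected share of all transcripts in a library, with the same sum over genes in every library. Read counts were not analysed here, so the depth behind a TPM is unknown.

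NOTCH receptors are activated by DLL and JAG ligands on a neighbouring cell. The receptor is then cut, and its inner part enters the nucleus, where it joins the DNA-binding protein RBPJ and switches on genes of the HES and HEY families. These encode repressors that hold neural progenitors undifferentiated by keeping proneural genes such as NEUROG2 low, and the proneural factors in turn raise DLL1 and DLL3. NRARP is itself a NOTCH target and dampens the signal. DLL3 is a divergent ligand that acts mainly inside its own cell. HES1 also responds to signals other than NOTCH.

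Sequence before the transcript start is shown for HES1, HES4 and HES5, because these genes are repressors of 1 family whose values moved in different directions below. RefSeq promoter windows on GRCh38.p14 matched 7 of the 10 genes (HES1, HES4, HES5, HEYL, NRARP, JAG1 and NOTCH1). Each stretch holds the 120 bases before the annotated start, read 5′ to 3′ on the strand of the gene, with capitals at GTGGGAA, the motif bound by RBPJ. The authors' values were made on hg19, and these positions are on GRCh38.p14. The stretch of HES1 is chr3:194136028-194136147 on the plus strand, that of HES4 is chr1:1000098-1000217 on the minus strand, and that of HES5 is chr1:2530264-2530383 on the minus strand.
HES1: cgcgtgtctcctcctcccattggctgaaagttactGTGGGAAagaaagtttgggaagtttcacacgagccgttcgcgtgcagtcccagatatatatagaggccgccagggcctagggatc
HES4: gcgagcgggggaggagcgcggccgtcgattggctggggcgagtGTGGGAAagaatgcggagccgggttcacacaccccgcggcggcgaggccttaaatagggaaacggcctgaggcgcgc
HES5: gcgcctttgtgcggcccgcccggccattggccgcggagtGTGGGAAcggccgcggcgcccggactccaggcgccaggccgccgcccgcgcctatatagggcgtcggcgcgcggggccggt

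GTGGGAA began 85 bases before the start of HES1, 77 before HES4 and 81 before HES5, on the strand of the gene in all 3. HES5 held a second match on the opposite strand at 224 bases, and HEYL a match on the opposite strand at 178 bases. The shorter core TGGGAA, which lies within GTGGGAA, occurred once more in HES1, at 70 bases, and once more in HEYL, at 99 bases. The windows of NRARP, JAG1 and NOTCH1 held neither in the 250 bases searched. Of 35116 RefSeq promoters, 5.43% held GTGGGAA on either strand in the same 250 bases and 20.8% held the core. CACNAG, the N box bound by HES proteins, was found 3 times before HES1, at 58 and 132 bases on its strand and at 165 bases on the other, and in 32.0% of all promoters. A match describes letters and says nothing on binding in these cells.

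**Figure D1:**
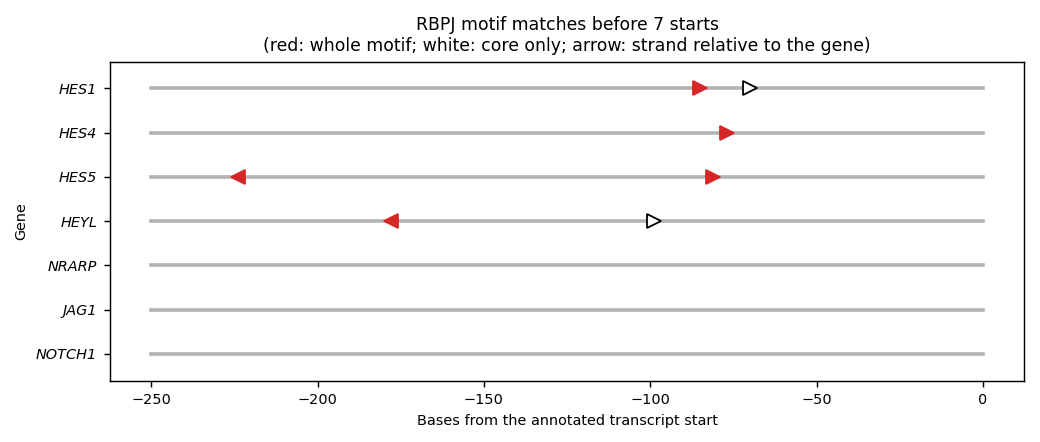
Positions of RBPJ motif matches (horizontal axis, bases from the annotated start) before 7 members. Red arrows mark GTGGGAA and white arrows the core TGGGAA alone, pointing right on the strand of the gene; the red arrows of HES1, HES4 and HES5 stand between 77 and 85 bases before the start.

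Several libraries stood apart, and results that rest on them are given with and without them. The toxic libraries of day 21 had lower values of long transcripts, with a median slope of the deviation on log2 transcript length of -0.332, against 0.000115 in the non-toxic libraries of that day. A slope below -0.15 was seen in 40 toxic libraries and in 1 non-toxic library, that of ibuprofen on day 8 (-0.713). The day 1 libraries of Maneb (-0.855) and monosodium glutamate (-0.819) were the lowest. Vincristine on day 4 had 17188 genes at 1 TPM or more, the most of all libraries. The cultures expressed the progenitor markers SOX2, NES, VIM and SOX1 in every non-toxic library (lowest values 29.6, 383, 600 and 31.0 TPM), as well as FABP7 (113), whereas PAX6 was low throughout, from 1.88 to 17.2 TPM, and the microglia markers AIF1, CX3CR1 and CSF1R stayed at or below 1.22 TPM. In bulk cultures, fewer cells of a type and less RNA of a gene per cell cannot be told apart.

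In the non-toxic cultures the ligand genes DLL1 and DLL3, NOTCH1, NRARP, HES5 and HEYL rose over the first 4 days and then fell, while HES1 and HEY1 were highest on day 39. On day 1 HES4 had the highest level of the 10 genes, at 343 ± 33.1 TPM (SD, n = 16), and HEY1 the lowest, at 5.70 ± 0.977. From day 1 to day 4, 8 of the 10 rose, where 26.1% of all tested genes did, and 2 fell, where 29.7% did. From day 4 to day 10, 1 rose (32.8% of tested genes) and 8 fell (35.8%). From day 10 to day 21, 4 rose (49.6%) and 6 fell (12.5%). From day 21 to day 39, 2 rose (28.8%) and 7 fell (42.0%). The differences below are on the scale of log2(TPM + 1), tested with limma and called at a Benjamini-Hochberg adjusted p under 0.05.

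DLL1, the ligand through which newborn neurons signal to progenitors, stood at 224 ± 9.15 TPM on day 1 (n = 16), 315 ± 12.9 on day 4 (n = 16), 89.6 ± 4.96 on day 10 (n = 15), 68.5 ± 4.43 on day 21 (n = 11) and 32.0 ± 2.61 on day 39 (n = 14). The ranges of day 4 (295.5 to 341 TPM) and day 10 (77.7 to 95.8) did not overlap, and the fall was 1.81 on the log2 scale (SE 0.05, adjusted p = 2.7e-71). DLL3 held on longer. It was 256 ± 15.0 TPM on day 4, 228 ± 11.4 on day 8 (n = 10) and 157 ± 14.4 on day 10, and reached 33.2 ± 5.30 on day 39. JAG1, a ligand of the other family, took a different course: it fell from 136 ± 5.01 TPM on day 1 to 40.0 ± 4.21 on day 10, then rose to 58.2 ± 3.10 on day 21 (0.54 log2, SE 0.07, adjusted p = 9.0e-12). NOTCH1 went from 181 ± 10.1 TPM on day 1 to 229 ± 12 on day 4 and 78.6 ± 4.93 on day 10, and ended at 67.5 ± 4.54 on day 39. NRARP followed DLL1 in shape, with 97.0 ± 5.75 TPM on day 1, 160 ± 10.2 on day 4 and 18.4 ± 2.40 on day 39.

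Among the effectors, HES5 went from 188 ± 9.59 TPM on day 1 to 298 ± 14 on day 3, 112 ± 9.99 on day 10, 75.5 ± 9.24 on day 21 and 16.2 ± 3.99 on day 39. Its fall from day 21 to day 39, 2.18 on the log2 scale (SE 0.08, adjusted p = 6.5e-59), was larger than that of any other member over those days. HES1 ran the other way. It dipped from 13.4 ± 1.57 TPM on day 1 to 8.39 ± 2.15 on day 4 and then rose to 18.7 ± 2.37 on day 10, 34.0 ± 4.16 on day 21 and 46.9 ± 5.20 on day 39, so that the mean of HES1 stood below that of HES5 on day 21 and above it on day 39. HEY1 rose from 5.70 ± 0.977 to 11.7 ± 1.73 TPM by day 4, fell to 7.56 ± 1.31 on day 10 and rose again to 29.7 ± 3.88 on day 39. HEYL, the least abundant member late on, fell from 11.4 ± 0.890 TPM on day 4 to 3.11 ± 0.603 on day 10, and stayed between 2.10 and 4.47 on average after that.

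From day 1 to day 4 HES4 had the smallest change of the 10 genes, 0.20 (SE 0.08), and it did not pass once each library was centred on its median. It averaged 394 ± 42.1 TPM on day 4 and 359 ± 32.6 on day 10, a difference of -0.13 (SE 0.08) that did not pass (adjusted p = 0.13). Between those days it was not flat, with 492 ± 58.1 TPM on day 6 (n = 15), a rise from day 4 of 0.32 (SE 0.08, adjusted p = 0.00051). HES4 was lowest on day 27, at 120.1 ± 26.3 (n = 12), and rose from there to 160 ± 29.9 on day 39 (0.42, SE 0.09, adjusted p = 1.5e-05). On day 8 its mean of 497 ± 256 TPM (n = 10) rested on the ibuprofen library, at 1220 TPM; without it the mean was 417 ± 32.0 (n = 9). The same library moved HES5 on that day, at 198 ± 73.2 TPM with it and 175 ± 12.7 without it. Over the 10 steps between adjacent days, 72 of the 100 member steps passed, against 39.4% of the steps of all tested genes. Of the 28 that did not pass, 8 lay between days 3 and 4 and 6 between days 15 and 21.

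**Figure D2:**
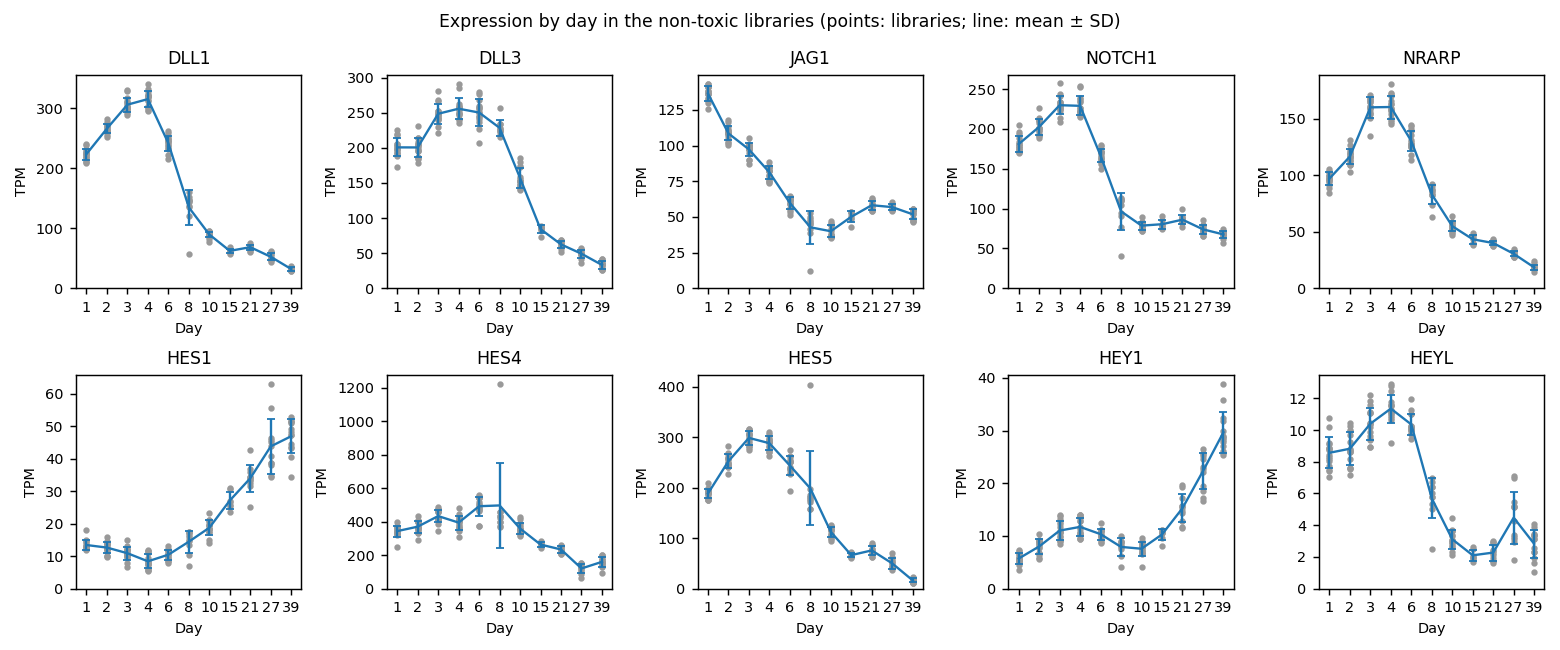
TPM (vertical axis) of the 10 members by day (horizontal axis, days evenly spaced) in all non-toxic libraries; grey points are libraries and the blue line with bars is the mean ± SD. DLL1, NRARP and HES5 peak on day 3 or 4 and fall, HES1 and HEY1 end highest, and the single high point of HES4 on day 8 is ibuprofen at 1220 TPM.

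Of 36 other genes of the pathway, all tested, 16 rose and 5 fell from day 1 to day 4, 12 rose and 19 fell from day 4 to day 10, 13 rose and 6 fell from day 10 to day 21, and 10 rose and 15 fell from day 21 to day 39. From day 4 to day 10 the largest differences were those of the proneural gene NEUROG1 (-2.91, SE 0.10), the fringe gene MFNG (-2.14, SE 0.08), whose product tunes ligand binding by adding sugars to NOTCH, and the ligand gene JAG2 (1.94, SE 0.07). Cell markers moved over the same days: all 5 markers of dividing cells fell from day 4 to day 10, with a median difference of -1.72, and all 5 astrocyte markers rose, with a median of 0.60. The part of changing cell numbers in the members' courses was not tested.

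Against non-toxic libraries of the same days, the 28 toxic compounds with at least 3 libraries gave 145 calls of a member out of 280 possible. There were 30 higher and 115 lower calls, where 14.1% and 17.9% of all gene and compound combinations were called. All compounds were set against the same non-toxic libraries, so their calls are not independent of each other. NRARP was lower under 21 of the 28 compounds and higher under 0, NOTCH1 lower under 19 and higher under 1, and DLL1 lower under 16 and higher under 0. HES5 was lower under 12 and higher under 2, DLL3 lower under 11 and higher under 0, and HES4 lower under 11 and higher under 1. HES1 was the member most often higher, under 14 compounds against 1 lower. JAG1 was lower under 11 and higher under 6, HEYL lower under 9 and higher under 2, and HEY1 lower under 4 and higher under 4. The median tested gene was higher under 3 compounds and lower under 5.

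Counted library by library, 38.6% of the 2650 member values in the toxic libraries, without Maneb, lay below every non-toxic library of their day, and 17.3% above every one, where 20.5% and 17% of the values of all tested genes did. NOTCH1 (58.9% below) and DLL1 (56.6% below) were most often under the non-toxic range, and HES1 was most often over it (35.5% above, 10.6% below). The same fit applied to the 16 non-toxic compounds, each against the others, gave 4 calls of a member in 160, where 2.00% of all gene and compound combinations were called. All 4 were lower values under ibuprofen (HES1, DLL1, JAG1 and NOTCH1). Without libraries of a slope below -0.15, there was 1 call, a lower value under DMSO.

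**Figure D3:**
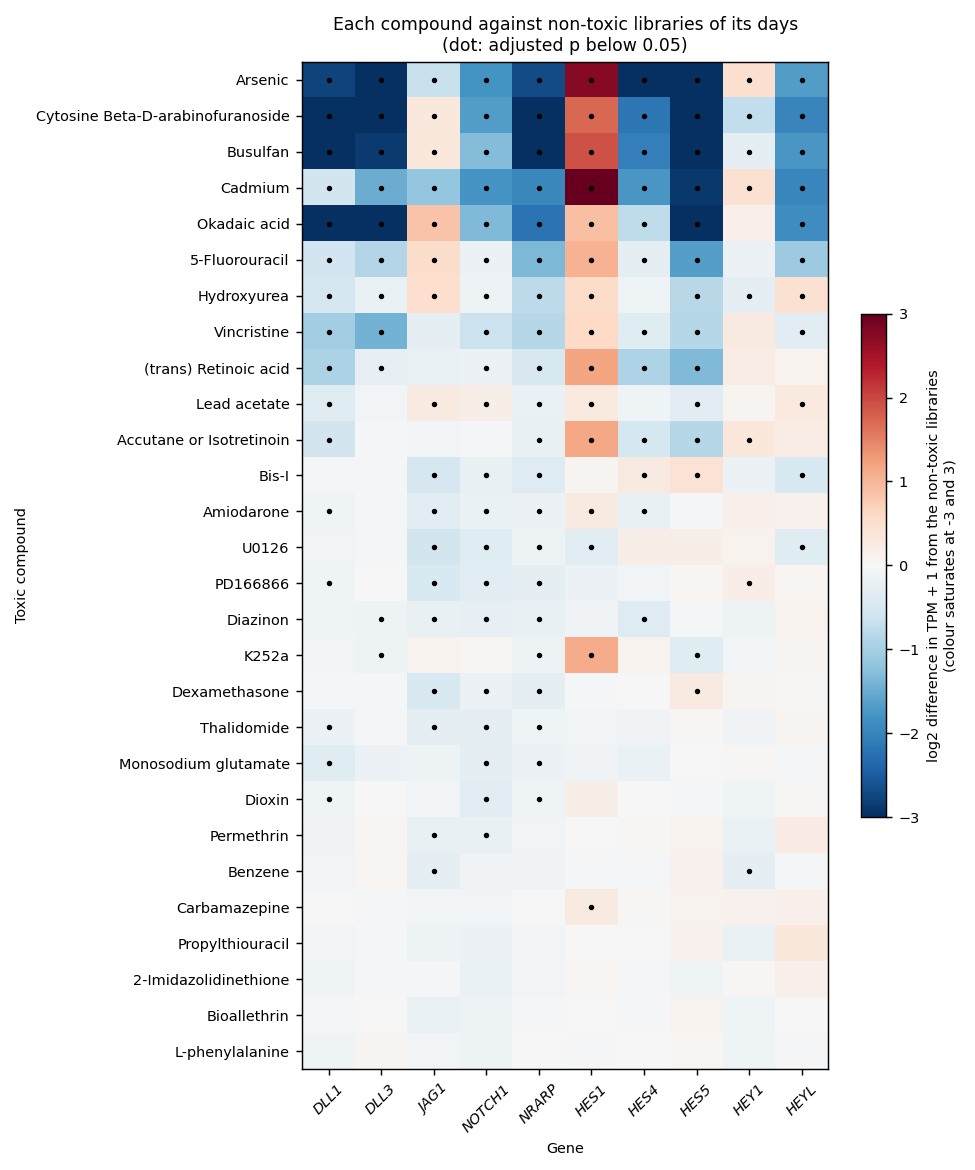
Difference of log2(TPM + 1) from the non-toxic libraries of the same days (colour, limited at -3 and 3) for each member (horizontal axis) under each of 28 toxic compounds (vertical axis, in order of members called); a dot marks an adjusted p below 0.05. The column of HES1 is red in the upper rows where those of DLL1, NRARP and HES5 are blue, and the lowest 4 rows hold no dot.

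Under the 10 compounds with the most calls, HES1 was higher under all 10 and HES5, DLL1 and NRARP were lower under all 10. DLL3 and NOTCH1 were lower under 9, HES4 under 8 and HEYL under 7. These compounds were picked for calling the most members, so the counts are a description, and under them 30.8% of all gene and compound combinations were higher and 33.7% lower. The vincristine day 4 library and the cadmium libraries affect some of these values, as given below.

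Arsenic changed all 10 members. HES1 and HEY1 were higher, where 34.8% of tested genes were, and 8 were lower, where 46.7% were. The median absolute difference was 2.71 over the members and 0.58 over all tested genes. HES5 read 8.43, 6.24, 2.80, 4.04 and 1.21 TPM on days 1, 2, 3, 4 and 6, while the lowest non-toxic value on those days was 174.5, 227, 275, 263 and 194. Every arsenic library was therefore far below the non-toxic range, and the fall was 5.67 (SE 0.11, adjusted p = 1.3e-62). DLL3 read 18.6, 28.7, 10.8, 12.1 and 1.53 TPM, also below every same-day non-toxic library, and fell by 4.29 (SE 0.16). HES4 fell by 3.08 (SE 0.13). It read 135, 50.2, 28, 34.3 and 32.6 TPM on days 1, 2, 3, 4 and 6, where the lowest non-toxic values were 247, 288, 346, 308 and 372. HES1 read 66.0, 81.5, 79.2, 94.5 and 71.2 TPM, each above the highest non-toxic value of its day, and rose by 2.73 (SE 0.12, adjusted p = 3.4e-37). HEY1 depended on the first day, with 32.0 TPM on day 1 and 6.11 on day 6. Its difference of 0.48 was 0.01 without the day 1 library and 0.36 without the day 2 library, and passed in neither case. The remaining differences were -2.78 (SE 0.06) for DLL1, -2.69 (SE 0.06) for NRARP, -1.80 (SE 0.03) for NOTCH1, -1.68 (SE 0.09) for HEYL and -0.67 (SE 0.06) for JAG1.

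Cadmium also changed all 10. The direction was higher for HES1 and HEY1 (24.6% of tested genes) and lower for 8 (59.4%). HES1 read 47.5, 238, 331, 290.0 and 66.6 TPM on days 1, 2, 3, 4 and 6, where the highest non-toxic values were 18.1, 15.9, 15.1, 11.9 and 13.1. This rise of 3.66 (SE 0.18, adjusted p = 1.0e-32) was the largest of HES1 under any compound. HES5 fell by 2.90 (SE 0.06), and JAG1, at 36.8, 40.7, 35.3, 43.7 and 50.2 TPM, by 1.16 (SE 0.07). DLL1 did not move one way: it was 66.3 TPM on day 1, below all non-toxic libraries, and 369.5 TPM on day 4, above all of them. The median over abundant genes was itself -0.67 under cadmium and -0.36 under arsenic. With each library centred on that median, DLL1 under cadmium was 0.12 higher in place of 0.54 lower. Without the day 1 library it was -0.24 and still passed. The rise of HEY1 (0.46, SE 0.12) was 0.26 without the day 1 library, which did not pass, and 0.72 without the day 6 library. HEYL (-1.95), NRARP (-1.94), NOTCH1 (-1.78), HES4 (-1.75) and DLL3 (-1.49) were lower. All 5 cadmium libraries had a length slope below -0.15, so no fit without such libraries was possible.

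AraC, a nucleoside analogue that stops DNA synthesis, and busulfan, an alkylating agent, each changed all 10 members, with 2 higher and 8 lower. Under AraC 40.9% of tested genes were higher and 27.2% lower, and under busulfan 29.5% and 35.1%. HES5 fell from day to day under AraC (34.4, 13.1, 1.05, 0.81 and 0.42 TPM on days 1, 2, 3, 4 and 6) and under busulfan (76.4, 23.3, 2.45, 1.28 and 0.85). The fitted falls were 5.70 (SE 0.24) and 5.03 (SE 0.27). NRARP declined in parallel, to 4.71 TPM under AraC and 2.73 under busulfan on day 6, where the non-toxic mean was 130 ± 9.05 (n = 15). DLL1 dropped to 10.3 and 8.61 TPM on that day, against 242 ± 12.6 (n = 15). HES1 went up, from 19.6 TPM on day 1 to 44.5 on day 6 under AraC and from 21.6 to 38.0 under busulfan, with 64.6 on day 3. Every one of these 10 libraries was above the non-toxic range for HES1.

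JAG1 was the ligand gene that rose under both. It read 144, 140, 113, 96.8 and 94.0 TPM under AraC, above every same-day non-toxic library, and was 0.31 higher (SE 0.04, adjusted p = 1.9e-10). Under busulfan it was 0.31 higher as well (SE 0.05, adjusted p = 6.8e-09), above the range on 4 of 5 days. HEY1 was lower under AraC (-0.75, SE 0.10). Its difference of -0.27 under busulfan was -0.23 without the day 3 library, -0.18 without the day 4 library and -0.20 when centred on the median, and passed in none of these. DLL3 had a difference of -3.26 (SE 0.20) under AraC and -2.87 (SE 0.21) under busulfan, HES4 -2.17 (SE 0.14) and -2.04 (SE 0.15), HEYL -1.97 (SE 0.15) and -1.76 (SE 0.18), and NOTCH1 -1.68 (SE 0.07) and -1.30 (SE 0.09).

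Okadaic acid, an inhibitor of protein phosphatases, changed 9 members, 2 higher (35.1% of tested genes) and 7 lower (39.8%). HES5 was 98.7 and 81.3 TPM on days 1 and 2 and then 2.40, 0.90 and 0.46 on days 3, 4 and 6, below the range on all 5 days (-4.72, SE 0.34). DLL3 and DLL1 followed the same days, with 118 and 141 TPM on day 1 and 2.26 and 3.60 on day 6. JAG1 read 198, 232, 175, 122 and 143 TPM, above all same-day non-toxic libraries, and its rise of 0.86 (SE 0.05, adjusted p = 1.0e-28) was its largest under any compound. HES1 was above the range on 4 of 5 days and returned to 10.8 TPM, within it, on day 4. NRARP (-2.22, SE 0.16), HEYL (-1.87, SE 0.16), NOTCH1 (-1.32, SE 0.08) and HES4 (-0.75, SE 0.11) were lower. HEY1 did not pass (0.16, SE 0.10). Without the day 4 library it did (0.26), and without the day 1 library it was 0.02 and did not pass.

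**Figure D4:**
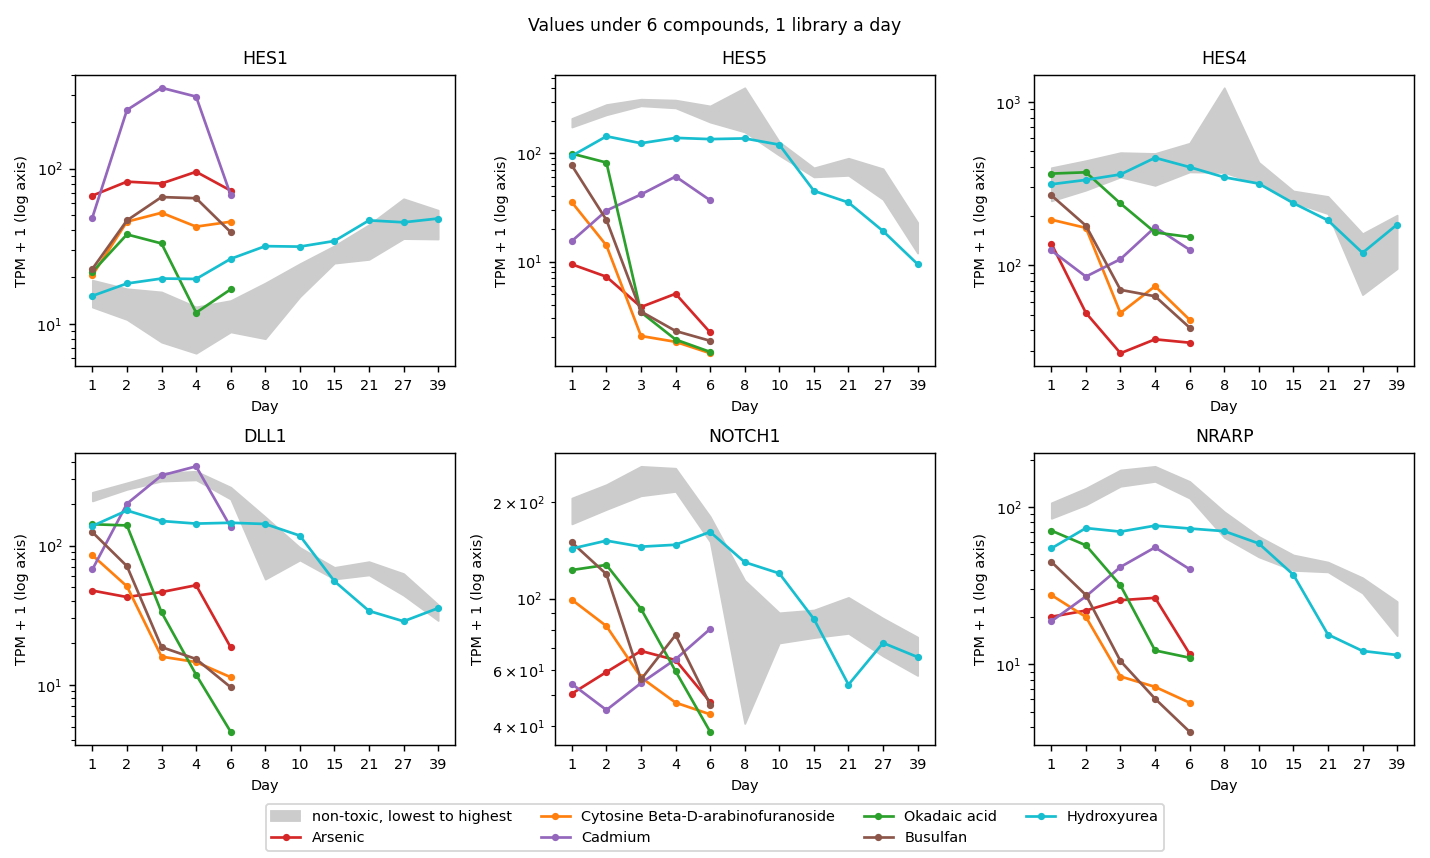
TPM + 1 (vertical log axis) of HES1, HES5, HES4, DLL1, NOTCH1 and NRARP by day (horizontal axis, days evenly spaced) under 6 compounds, 1 library a point; the grey band runs from the lowest to the highest non-toxic library. HES5 ends between 0.42 and 1.21 TPM on day 6 under AraC, busulfan, okadaic acid and arsenic, and HES1 lies above the band on all 5 days under arsenic, AraC, busulfan and cadmium, with 331 TPM on day 3 under cadmium.

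Markers of other cells and of division moved with these calls. Dividing-cell markers fell in 5 of 5 genes under arsenic, busulfan, cadmium and okadaic acid and in 4 of 5 under AraC, and progenitor markers fell in 5 of 6 genes under each of these but cadmium, where all 6 fell. The summed progenitor markers did not all go with those counts: they ran from 4993 to 8385 TPM under okadaic acid and from 2047 to 3837 under cadmium, against 3346 to 5671 in the non-toxic libraries of days 1 to 6. Of 5 astrocyte markers 4 were higher under AraC, with sums up to 589 TPM against at most 221. Summed mural and mesenchymal markers (PDGFRB, RGS5, ACTA2, TAGLN and COL1A1) ran from 2129 to 11403 TPM under arsenic, 1229 to 6468 under AraC and 1404 to 7931 under busulfan, where the 79 non-toxic libraries of days 1 to 6 ran from 193 to 878. Under okadaic acid they were 741 to 1657 and under cadmium 72.4 to 930. Gene by gene, 4 of these 5 markers were higher under arsenic and all 5 under AraC and busulfan. Under okadaic acid 1 was higher and 2 lower, with a median difference of -0.19. Under cadmium 1 was higher and 3 lower, with a median of -0.90. Summed neuron markers were 764 to 1296 TPM under arsenic and 1247 to 1946 under okadaic acid, against 2133 to 5795. Summed endothelium markers ran from 16.6 to 69.3 TPM under okadaic acid and from 10.9 to 27.0 under AraC, against 3.08 to 16.9 in the non-toxic libraries, and reached at most 16.9 under arsenic, busulfan and cadmium. The defining endothelium genes PECAM1, CDH5, KDR and TEK had non-toxic medians of 0.64 TPM or less. Summed microglia markers were at most 3.06 TPM under these 5 compounds. Their part in the members' differences was not tested.

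Of the 36 other pathway genes, 6 were higher and 24 lower under arsenic, 13 and 18 under AraC, 10 and 18 under busulfan, 4 and 29 under cadmium, and 10 and 21 under okadaic acid. Their median difference was -0.63, -0.13, -0.14, -0.84 and -0.41 in that order. Many of all tested genes were called under these compounds as well, in the shares given above for each, so the counts set nothing apart. The proneural gene NEUROG2 had a difference of -4.27 (SE 0.28) under okadaic acid. Under cadmium the largest were the fringe gene LFNG (-2.76, SE 0.07) and the receptor gene NOTCH3 (-2.61, SE 0.07). DLK1, which encodes a ligand-like protein without the DSL domain of the DLL family, rose by 5.12 (SE 0.27) under okadaic acid and by 1.96 (SE 0.14) under AraC.

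5-Fluorouracil, an antimetabolite, changed 9 members, HES1 and JAG1 upward (39.6% of tested genes) and 7 downward (19.1%). Its values parted from the non-toxic range over days. HES1 read 15.2 TPM on day 1, within the range, then 23.1, 37.4, 67.5 and 58.4 on days 2, 3, 4 and 6, and 30.1 and 40.9 on days 27 and 39, below the non-toxic means of 43.8 and 46.9. HES5 read 164, 216, 194, 106, 38.5, 2.89 and 1.34 TPM on its 7 days and was below the range on every one (-1.65, SE 0.15, adjusted p = 7.6e-18). HEYL was listed at 0 on days 27 and 39, the only 0 values of any member, and NRARP was 3.41 and 3.94 TPM then, against 30.5 ± 2.38 (n = 12) and 18.4 ± 2.40 (n = 14). JAG1 stayed up at 153 TPM on day 6, where the non-toxic mean was 59.8 ± 4.06 (n = 15). Over all its days NRARP was -1.34 (SE 0.11), HEYL -1.09 (SE 0.14), DLL3 -0.88 (SE 0.11), DLL1 -0.58 (SE 0.06), HES4 -0.28 (SE 0.09) and NOTCH1 -0.18 (SE 0.04), while HES1 was 1.05 higher (SE 0.16), JAG1 was 0.52 higher (SE 0.06) and HEY1 did not pass (-0.17, SE 0.09). All 5 dividing-cell markers were lower under 5-fluorouracil, with a median of -1.83, 3 of 5 astrocyte markers were lower and 3 of 5 mural and mesenchymal markers higher. Their part in the members' differences was not tested.

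Hydroxyurea, which blocks ribonucleotide reductase, changed 9 members, with HES1, JAG1 and HEYL higher (28.9% of tested genes) and 6 lower (23.2%). NRARP was 53.7 to 75.3 TPM on days 1 to 6, where the lowest non-toxic values were 83.9 to 145, and fell by 0.78 overall (SE 0.06, adjusted p = 1.4e-27). DLL1 held between 137 and 178 TPM over days 1 to 8, below the range through day 6 and inside it on day 8. Without days 15 and 21 the fall of NOTCH1 (-0.16) was -0.13 and did not pass. HEYL was within the range on days 1 to 3, below it on day 4, and above it at 16.2, 18.6, 18.2, 10.5 and 3.34 TPM on days 6, 8, 10, 15 and 21. The difference between days 8 to 39 and days 1 to 6, tested as its own contrast, passed for 6 members, all upward, where 21.5% of tested genes passed. Of these, HEY1 did not pass without libraries of a slope below -0.15, and NRARP did not with a pseudocount of 0.1. DLL3 went from 0.57 lower early (SE 0.07) to 0.11 higher late (SE 0.06), and DLL1 from 0.84 lower (SE 0.08) to 0.25 lower (SE 0.08). Over all days HES5 was -0.84 (SE 0.07), HEY1 -0.27 (SE 0.08) and HES4, which did not pass, -0.13 (SE 0.08), while HES1 was 0.55 higher (SE 0.08) and JAG1 0.50 (SE 0.07). All 5 dividing-cell markers were higher under hydroxyurea, with a median of 0.83, and all 5 mural and mesenchymal markers were higher, with a median of 1.43; their part in these differences was not tested.

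Vincristine, which blocks microtubule assembly, gave 8 calls, HES1 higher (33.1% of tested genes) and 7 lower (37.9%). The day 4 library, with its high number of detected genes, decided several of them. NOTCH1 read 142, 187, 228, 25.7 and 205 TPM on days 1, 2, 3, 4 and 6, and its difference of -0.65 shrank to -0.04 and did not pass without day 4. JAG1, at 11.4 TPM on day 4 and 137 on day 6, went from -0.30, not passing, to 0.31 (adjusted p = 0.000823). DLL1 was -1.05 with that library and -0.45 without it, DLL3 -1.42 and -0.69, and NRARP -0.85 and -0.42, and these passed both ways. HES5 was -0.85 with it and -0.73 without it, and -0.46 without the day 6 library, passing each time. HES4 was -0.37, and -0.18 without day 6. HEY1 did not pass (0.27), was -0.07 without day 4, and passed without day 6 (0.49) or day 1 (0.34). HES1, at 12.9, 13.2, 16.5, 5.97 and 78.2 TPM, rested on day 6, without which its 0.60 became 0.05 and did not pass. HEYL, at 2.22 TPM on day 6, likewise went from -0.32 to 0.05 without that day. HES4 and HEYL did not pass when centred on the median (-0.15 and -0.10). Over the vincristine libraries the summed microglia markers reached 33.6 TPM and the summed endothelium markers 182, against at most 1.02 and 16.9 in non-toxic libraries of days 1 to 6. All 6 neuron markers were lower under vincristine, with a median of -1.18, and 4 of 5 astrocyte markers were higher. Their part in the members' values was not tested.

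Under both retinoids HES1, HEY1 and HEYL differed from the non-toxic libraries by amounts that changed with time. (trans) Retinoic acid called 7 members over its 11 days, HES1 higher (21.2% of tested genes) and 6 lower (26.4%). Isotretinoin, its 13-cis isomer, was given at 0.5 µg/ml, which comes to 1.66 µM, close to but not equal to the other retinoid's dose, and called 6, of which 2 were higher (20.2%) and 4 lower (21.0%). Over all days (trans) retinoic acid gave differences of -1.32 for HES5, -0.95 for DLL1, -0.92 for HES4, -0.49 for NRARP, -0.24 for DLL3 and 1.19 for HES1, and isotretinoin -0.85 for HES5, -0.55 for DLL1, -0.52 for HES4, -0.22 for NRARP and 1.15 for HES1. JAG1 (-0.20 and -0.07) and HEYL (0.11 and 0.23) passed under neither. Under (trans) retinoic acid NOTCH1 was lower (-0.16, SE 0.06) and HEY1 did not pass (0.22, SE 0.12), while under isotretinoin HEY1 was higher (0.32, SE 0.11) and NOTCH1 (-0.05) and DLL3 (-0.06) did not pass. HES1 under (trans) retinoic acid read 23.7, 45.6, 60.7, 53.7, 62.8, 64.5 and 53.9 TPM on days 1 to 10, all above the non-toxic range, then 35.5, 35.6, 35.3 and 25.5 on days 15, 21, 27 and 39. Non-toxic HES1 had risen to 46.9 ± 5.20 TPM by day 39, so the compound's library was above all of them at first and below all of them at the end. HEY1 did the reverse: 1.25, 3.00, 3.51 and 7.97 TPM on days 1 to 4, below all non-toxic libraries, and 15.5 to 64.6 from day 6 on, above them. Without days 15 and 21 the fall of NOTCH1 under (trans) retinoic acid (-0.09) and the rise of HEY1 under isotretinoin (0.17) did not pass. HEYL was 14.2, 25.2, 26.4 and 21.9 TPM on days 1 to 4, above the range, and 0.42 on day 39, below it.

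The contrast of days 8 to 39 with days 1 to 6 passed for 8 of 10 members under (trans) retinoic acid, where 35.6% of tested genes did, and for 7 of 10 under isotretinoin, where 28% did. HES1 was 2.01 higher early (SE 0.15) and 0.49 higher late (SE 0.14). HEY1 was 0.81 lower early (SE 0.12) and 1.11 higher late (SE 0.11), a change of 1.92 (adjusted p = 3.9e-22). HEYL turned from 0.86 higher (SE 0.13) to 0.53 lower (SE 0.12), while HES5 was lower in both windows, by 0.71 (SE 0.10) and 1.85 (SE 0.09). Under isotretinoin the changes were 1.37 for HEY1, -1.14 for HEYL and -0.93 for HES1. DLL1 under (trans) retinoic acid changed by -0.32, which did not pass without libraries of a slope below -0.15 (-0.14). Over all 21 compounds with at least 3 libraries in both windows, 64 of 210 member contrasts passed, where 14.3% of all gene and compound combinations did.

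**Figure D5:**
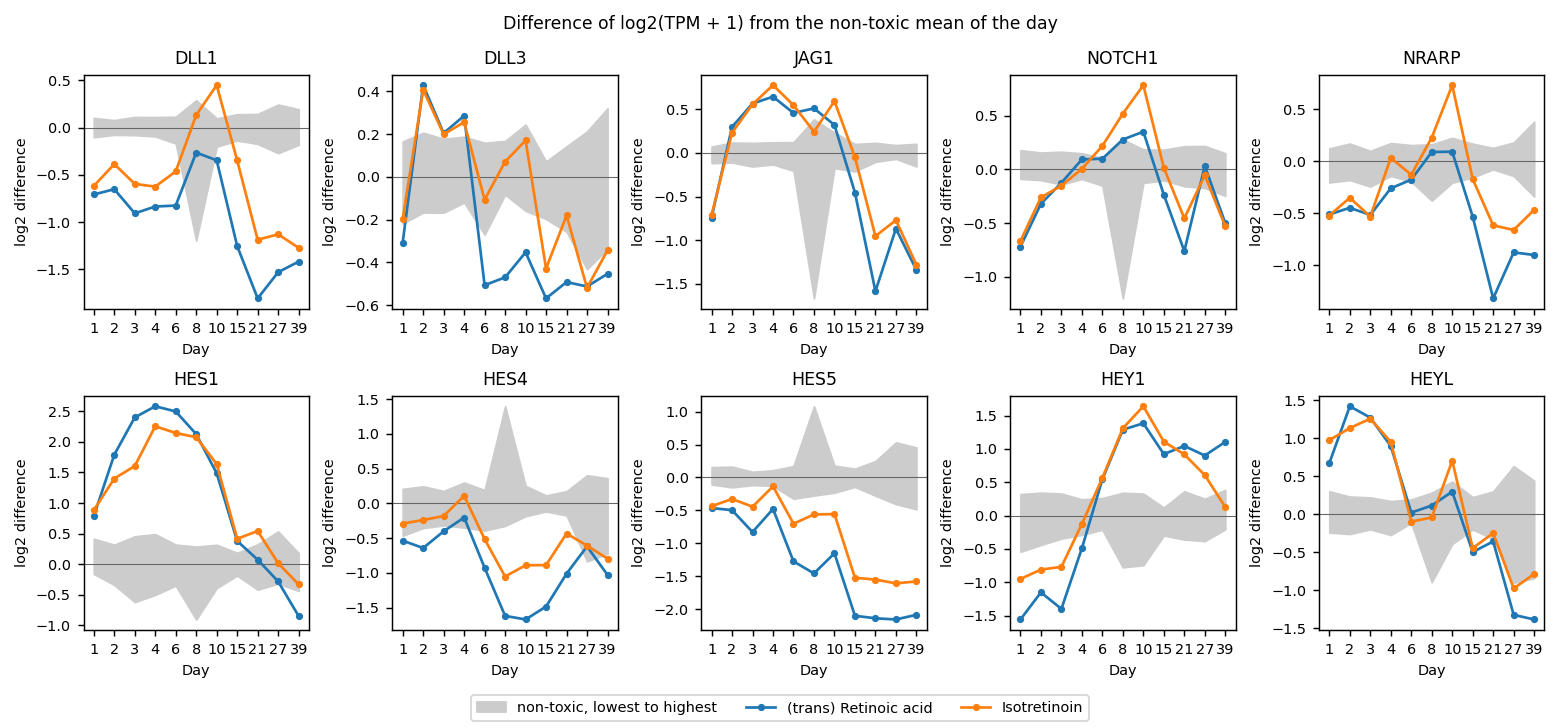
Difference of log2(TPM + 1) from the non-toxic mean of the day (vertical axis) for 10 members by day (horizontal axis, days evenly spaced) under (trans) retinoic acid (blue) and isotretinoin (orange), with the range of non-toxic libraries in grey. HES1 and HEYL start above the band and HEY1 below it, and HEY1 lies above it from day 6 to 21 under both. On day 8 ibuprofen is the low point of the band for HES1, HEY1, HEYL, NRARP, DLL1, JAG1 and NOTCH1 and the high point for HES4 and HES5.

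The direct comparison of the retinoids on their 11 shared days was 1 of 2 pairs compared, at doses that were close but not equal. (trans) Retinoic acid gave lower values than isotretinoin for HES5 (-0.47, SE 0.07), HES4 (-0.40, SE 0.06) and DLL1 (-0.41, SE 0.07), 3 of 10 members, where 1.06% of tested genes passed. HES5 read 14.6, 16.2, 10.2 and 2.94 TPM on days 15, 21, 27 and 39 under (trans) retinoic acid and 22.3, 24.9, 15.3 and 4.60 under isotretinoin. HES1 did not differ beyond its error: the difference was 0.03, with a 95% interval from -0.19 to 0.25. Without libraries of a slope below -0.15, only HES5 still passed. Among other pathway genes, DLK1 fell by 3.23 (SE 0.12) under (trans) retinoic acid and NEUROG1 rose by 1.99 (SE 0.13), with 9 of the 36 higher and 15 lower. Under isotretinoin 10 were higher and 13 lower. Progenitor markers were lower in 4 of 6 genes under each retinoid, and mural and mesenchymal markers in 4 of 5 under (trans) retinoic acid and 5 of 5 under isotretinoin. Of 5 endothelium markers, 3 were higher under each retinoid. Summed, they had a median of 44.0 TPM under (trans) retinoic acid over its 11 days, where the daily non-toxic medians ran from 4.53 to 12.5. The part of all these markers was not tested.

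Lead acetate called 7 members with small differences, 4 higher (19.6% of tested genes) and 3 lower (22.4%). DLL1 read 159, 213, 225, 240.4 and 217 TPM on days 1, 2, 3, 4 and 6, below the non-toxic range on days 1 to 4 and within it on day 6. It was below the range again at 51.1, 39.9, 32.2 and 20.1 TPM on days 15, 21, 27 and 39. It fell by 0.37 over all 11 days (SE 0.05, adjusted p = 4.2e-10). JAG1 was above the range on 7 of 11 days, with 72.7 and 82.0 TPM on days 8 and 10 (0.28, SE 0.07). NOTCH1 was 0.18 higher (SE 0.06), the single rise of that gene among the 28 compounds. HEYL was 0.30 higher (SE 0.08) and HES1 0.29 higher (SE 0.09), and HES5 (-0.35, SE 0.06) and NRARP (-0.19, SE 0.05) were lower. HES4 (-0.13), DLL3 (-0.09) and HEY1 (0.07) did not pass. The contrast of days 8 to 39 with days 1 to 6 passed for 4 members, where 17.3% of tested genes passed. Under lead acetate 5 of 6 neuron markers were lower, and 4 of 5 mural and mesenchymal markers were higher, with a median of 0.47. Their part in the members' differences was not tested. In the other pathway genes 6 were higher and 15 lower, led by NEUROG2 (-0.77, SE 0.08).

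The other 18 compounds gave 9 higher and 47 lower calls, between -0.85 and 1.15, with a median size of 0.27, where 4.81% of all gene and compound combinations were higher and 9.14% lower. Diazinon gave 0 higher and 5 lower of these calls, and dexamethasone 1 and 3. The share of all tested genes called under each alone is not given here. Under diazinon the median absolute difference was 0.154 over the members and 0.059 over all tested genes. Under dexamethasone these were 0.068 and 0.073. K252a and Bis-I, inhibitors of protein kinases, were picked for mention after their values were seen. K252a at 30 nM raised HES1, with 28.3, 31.3, 34.3, 37.2 and 30.2 TPM on days 1, 2, 3, 4 and 6, by 1.12 (SE 0.09, adjusted p = 3.5e-23). It gave 1 higher call (18.7% of tested genes) and 3 lower (16.7%), HES5 among them at -0.36 (SE 0.07). Bis-I at 4 µM gave 2 higher (10.2%) and 4 lower (32.3%): HES5 was 0.44 higher (SE 0.07), with 281 and 295 TPM on days 8 and 10 against non-toxic means of 198 ± 73.2 and 112 ± 9.99, and JAG1 was 0.51 lower (SE 0.07). Without the ibuprofen library the non-toxic mean of HES5 on day 8 was 175 ± 12.7 (n = 9). Without libraries of a slope below -0.15 the rise of HES4 under Bis-I did not pass. The rise of HES5 came with the later days: it was 0.10 on days 1 to 6, which did not pass, and 0.73 on days 8 to 39, a change of 0.62 (SE 0.12, adjusted p = 2.1e-05). HES1 under Bis-I, at 0.08 over all days, was 0.58 higher early (SE 0.11) and 0.35 lower late (SE 0.10). This contrast passed for 4 members under Bis-I (21.2% of tested genes) and 7 under K252a (21.8%), where HES1 was 1.48 higher early (SE 0.12) and 0.81 late (SE 0.11). All 5 mural and mesenchymal markers were higher under K252a and lower under Bis-I, with medians of 0.86 and -1.04. All 5 astrocyte markers were lower under Bis-I. Their part was not tested.

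U0126, an inhibitor of the kinase MEK, at 10 µM, and PD166866, an inhibitor of the FGF receptor upstream of it, at 2.5 µM, both lowered JAG1 and NOTCH1. U0126 gave 0 higher calls (6.55% of tested genes) and 5 lower (15.3%), and PD166866 1 higher (8.98%) and 4 lower (15.1%). JAG1 fell by 0.54 (SE 0.07) under U0126 and by 0.47 (SE 0.05) under PD166866, and on day 39 it read 21.6 and 30.2 TPM, where the non-toxic libraries lay between 46.3 and 55.6. The fall of JAG1 under PD166866 lay in the later days, -0.09 on days 1 to 6 (SE 0.05), which did not pass, and -0.85 on days 8 to 39 (SE 0.05), a change of -0.76 (SE 0.06, adjusted p = 2.7e-20). Without libraries of a slope below -0.15 that change was -0.65 and still passed. Under U0126 JAG1 was -0.44 early (SE 0.10) and -0.65 late (SE 0.10), a change that did not pass (-0.21, SE 0.13), though it did without those libraries (-0.38). The contrast passed for 5 members under PD166866, where 37.6% of tested genes passed, and for 1 under U0126, NRARP, where 8.33% did. HES1 fell by 0.34 under U0126 (SE 0.09), the single fall of that gene among the 28 compounds. On their 9 shared days, with different doses, 0 of 10 members passed in the direct comparison by limma, where 1.05% of tested genes did. An unadjusted p under 0.05 was seen in 2 members, a count without the share of all tested genes beside it. The interval of the JAG1 difference ran from -0.45 to 0.04. Without days 15 and 21, HEY1 (0.17) and DLL1 (-0.05) under PD166866 and NRARP (-0.11) under U0126 did not pass. All 5 astrocyte and all 5 mural and mesenchymal markers were lower under U0126, with medians of -0.86 and -0.89. Under PD166866 4 of 5 astrocyte markers were lower and 5 of 6 neuron markers higher. Their part in these differences was not tested.

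Several of the weaker calls rested on days 15 and 21. Without those days, 0 members were called under amiodarone, thalidomide, dioxin, benzene, permethrin and carbamazepine, which had 6, 4, 3, 2, 2 and 1 calls with them. With those days kept and only libraries of a slope below -0.15 left out, amiodarone had 4 calls and permethrin 5. Monosodium glutamate had 3 lower calls with its day 1 library and 0 without it. On that day DLL1 read 23.8 TPM and NOTCH1 28.8, where the lowest non-toxic values were 208 and 170.0. Propylthiouracil, 2-imidazolidinethione, bioallethrin and L-phenylalanine had 0 calls. For the compounds of this paragraph no share of all tested genes stands beside the counts. The counts therefore do not tell a loss of calls in the members from a loss over all genes.

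Taking compounds as the replicates of a class, 28 toxic compounds were set against 16 non-toxic ones on days 1 to 6. There 0 of 10 members passed by limma, where 0.582% of tested genes did. An unadjusted p under 0.05 was seen in 7 of the 10 members and in 4158 of the 16318 tested genes. HES5 averaged -1.04 ± 1.87 over the toxic compounds (SD, n = 28) and 0.00 ± 0.05 over the non-toxic ones (n = 16), so the spread among toxic compounds exceeded the difference. On days 8 to 39, with 21 against 12 compounds, NRARP was 0.24 lower (SE 0.06, adjusted p = 0.00352) and was the only member to pass, where 17.6% of tested genes did. Without days 15 and 21 that difference was -0.18 and did not pass.

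Likeness was measured by Spearman's rho between deviations from the same-day non-toxic mean over all toxic libraries, among the 11853 tested genes that average 5 TPM or more. The libraries share controls within a day and compounds across days, so rho is a description with no test. HES5 was most like HES6 (0.85), which encodes a HES protein that acts against HES1, then DLL3 (0.68) and SOX12 (0.67). NOTCH1 was most like NOTCH3 (0.84), PRRC2A (0.75) and PLXNA2 (0.74). DLL1 was most like BOC (0.77), PAX3 (0.76) and PRDM16 (0.75), and NRARP like PAX3 (0.72), PAX7 (0.70) and DLL1 (0.68). DLL3 was most like PHC2 (0.74), HES6 (0.70) and HES5 (0.68), HES4 like MEX3D (0.71), C4orf48 (0.70) and CDK5RAP3 (0.68), and JAG1 like TRIM9 (0.76), SIPA1L1 (0.75) and ASCC3 (0.73). HES1 was most like TAGLN2 (0.69), STC2 (0.68) and HLA-C (0.68), genes of the cytoskeleton, of stress secretion and of antigen presentation. HEYL was most like CDKN2C (0.57), KIF22 (0.56) and NEUROD4 (0.56), and HEY1 like KLHL28 (0.50), HEY2 (0.48) and C4orf34 (0.47). Between members, HES1 and HES5 had a rho of -0.49, HES5 and HES4 0.60, and HES1 and JAG1 0.40. HES1, HES4 and HES5, whose windows hold GTGGGAA at nearly the same distance from the start, did not share 1 direction across these compounds.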

How the data were processed

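RNA of H1-NPC cultures lysed on the plate was sequenced, and the values used are the authors' deposited gene-level TPM, made with CASAVA 1.8.2, Bowtie 0.12.8, RSEM 1.2.1 and hg19, per the submitters' processing notes. Column sums ran from 999999.07 to 1000001.05. Library depth is unknown, so no counting error is given. Each compound had 1 library a day at 1 dose, and compounds were grouped by the toxic and non-toxic labels.

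Values were taken as log2(TPM + 1), with a filter of 1 TPM in 5 libraries. Differences were tested with limma 3.58.1 in R 4.3.3 with an intensity trend, and p-values were adjusted by Benjamini-Hochberg over all 16318 genes. The time course was fitted by day. Compound fits held a term for each day, and libraries of 1 compound were treated as correlated (0.0212, an estimate of limma). Class fits had 1 value per compound. Intervals are the estimate plus or minus 1.96 standard errors. A length slope was fitted in each library across genes averaging 10 TPM or more. The fits were tested on simulated data: of genes changed by 0.5 on the log2 scale, 95% were recovered for arsenic and 80% for the late against early contrast of (trans) retinoic acid.

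All 10 members entered every comparison. The 10 compounds with the most calls were described with a value for each member, and the other 18 by counts, with isotretinoin and 4 kinase inhibitors added after their values were seen. For each member the 3 most alike genes were named, and of the pathway list the largest differences. Some results of that list are not reported here. The members and lists were chosen with earlier results of these data known. Alternatives were a pseudocount of 0.1, no filter, centring, other block choices, DMSO as the only control, and leaving out libraries or days.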

Additional observations from a re-analysis of the deposited data

Results flagged for a closer look

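Among groups of 4 to 10 libraries, a library was marked where its gap to the next took up more of the range than is usual. This was so in 12 of 90 groups tested, and chance gives about 1 in 20. The ibuprofen library of day 8 accounted for 6: HES4 at 1220 TPM and HES5 at 404 TPM were high, and DLL1 at 56.4, JAG1 at 12.02, NOTCH1 at 39.9 and HEYL at 2.52 TPM were low. In other non-toxic libraries DLL3 was 257 TPM with DMSO on day 8 and 73.2 TPM with Ficoll 400 on day 15. Among toxic libraries, as differences of log2(TPM + 1) from the non-toxic mean, HES1 was 0.52 under AraC on day 1, HEYL -1.26 under cadmium on day 6 and -1.82 under vincristine on day 6, and NOTCH1 -3.10 under vincristine on day 4.

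The difference from non-toxic libraries changed between days 1 to 6 and days 8 to 39, by limma's contrast of the windows with Benjamini-Hochberg adjusted p under 0.05, for 64 of 210 combinations of member and compound. Under (trans) retinoic acid, late minus early was 1.92 for HEY1, -1.52 for HES1, -1.38 for HEYL, -1.14 for HES5, -0.81 for JAG1, -0.69 for HES4, -0.49 for DLL3 and -0.32 for DLL1. Under isotretinoin it was 1.37 for HEY1, -1.14 for HEYL, -0.93 for HES1, -0.82 for HES5, -0.65 for JAG1, -0.55 for HES4 and -0.31 for DLL3. Under hydroxyurea it was 0.67 for DLL3, 0.67 for HEYL, 0.59 for DLL1, 0.49 for NOTCH1, 0.45 for HEY1 and 0.27 for NRARP. Under lead acetate it was 0.45 for NOTCH1, 0.33 for JAG1, -0.43 for HES4 and -0.47 for HES1. Under amiodarone it was 0.33 for DLL3 and -0.38 for JAG1. With benzene it was 0.34 for DLL3. Under Bis-I it was 0.54 for DLL3, -0.93 for HES1, 0.62 for HES5 and 0.58 for HEYL. With carbamazepine it was 0.75 for HEYL. Under dexamethasone it was 0.33 for DLL3, -0.73 for HES1, 0.37 for HES5, -0.43 for JAG1 and -0.31 for NRARP. With dioxin it was -0.24 for NRARP. Under K252a it was 0.49 for DLL1, 0.25 for DLL3, -0.66 for HES1, 0.52 for HES5, 0.50 for HEYL, 0.58 for NOTCH1 and 0.25 for NRARP. With monosodium glutamate it was 0.66 for DLL1, 0.39 for DLL3, -0.44 for HES4, 0.37 for HEY1, 0.73 for HEYL, 0.35 for JAG1 and 0.58 for NOTCH1. Under PD166866 it was -0.18 for DLL1, 0.33 for HES5, -0.76 for JAG1, -0.30 for NOTCH1 and -0.40 for NRARP. With permethrin it was 0.62 for HEYL and -0.27 for NRARP. Under thalidomide it was -0.44 for HES4, 0.59 for HEYL and -0.22 for NRARP. With U0126 it was -0.40 for NRARP. Without libraries of a length slope below -0.15, 56 combinations passed, with 0 of the 7 under monosodium glutamate, whose day 1 library is among those left out. The 56 were not all among the 64. Also lost were all under thalidomide, NRARP under dioxin, DLL3 and HEYL under Bis-I, and DLL1, HES5 and NOTCH1 under PD166866. DLL3 and JAG1 under amiodarone, DLL1 under (trans) retinoic acid, HEY1 under hydroxyurea, DLL3 under K252a and HES5 under dexamethasone were lost too. Newly passing were, among others, DLL1, JAG1 and NOTCH1 under benzene and NOTCH1 and NRARP under isotretinoin.

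Maneb, sampled on day 1 alone, entered no comparison with the non-toxic libraries, only the ranking of alike genes. In its library HEY1 was 12.02 TPM and HEYL 17.97 TPM, above the highest non-toxic values of 7.28 and 10.7, while the other 8 members were below the lowest. This library had the steepest length slope of all.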

How the results depend on the processing

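No paired analysis was possible because the replicate numbers only name libraries in accession order, each from a different day, and pair no samples. Compounds were matched by day through the day term of each fit. Of 1791 recomputed values of single members, 1675 kept their direction and side of the threshold, 80 lost their call (51 of them with DMSO as the only control), 33 gained one and 3 changed sign. With DMSO libraries as the only controls, calls over all compounds were 14 higher and 51 lower, with 6 members called under busulfan, 5 under hydroxyurea, 4 under lead acetate, 1 under 5-fluorouracil and 0 under vincristine. In that setting each day had 1 control library. No share of all tested genes stands beside the counts of this paragraph. They do not tell a change in calls of the members from a change over all genes. Without libraries of a length slope below -0.15, non-toxic compounds gave 1 call, the retinoid pair 1, and the class contrast of days 1 to 6 gave 2 (HES1 0.58 and NOTCH1 -0.32); cadmium could not be fitted, since all of its libraries were below. The limit for the class and non-toxic fits, and leaving out the day 1 library of monosodium glutamate, were chosen after seeing the data. Without days 15 and 21 the class contrast of days 8 to 39 gave 0 calls. Centred on the median, DLL1 under cadmium was 0.12. With each library left out in turn, HEYL under vincristine ranged from -0.43 to 0.0524 and JAG1 from -0.67 to 0.31. HEYL from day 21 to day 39 (0.20, adjusted p = 0.0513) passed when centred, with compound as a block and without low slopes. The cause of these changes was not tested.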
